A study of Microcebus murinus with 18 samples.

Results

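Ubiquitin is a small protein that is attached to other proteins, often as a mark for their destruction. An E1 enzyme activates it, an E2 enzyme carries it, an E3 ligase joins it to a substrate, and deubiquitinases remove it again. Ubiquilins are shuttle proteins that bind both ubiquitin and the proteasome, and in neurons they take part in the clearance of misfolded proteins. The genes described are the ubiquilins UBQLN1, UBQLN2 and UBQLN4, the polyubiquitin gene UBB, the E1 enzyme UBA1, the E2 enzyme UBE2K, the E3 ligases UBE3A and RNF185, and the neuronal deubiquitinase UCHL1. All probe sets annotated to 1 of these 9 genes were taken by symbol, 24 of 54613 probe sets and 9 of 19775 named genes in all. UBQLN1 was selected on its signal difference between the groups measured here, and RNF185, whose AD-like animals lay below all others, is treated in the same way, so the differences of both between groups are given as a description, and where they enter a count of calls nothing is read from it.

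RNA was from the temporal cortex of 18 grey mouse lemurs, with 1 human HG-U133 Plus 2.0 array for each animal. The AD-like group was 2 old females, the old group was 10 animals without such disease (females were 7 of them and males 3), and the young adult group was 6 animals, of which 4 were female and 2 male. AD-like stands for old animals in which amyloid deposits and a thinner cortex were seen by histology. Ages in years are not analysed here, and both AD-like animals being female limits that group as a model. No animal was treated or genetically altered, as far as the sources used here say. The signals are linear and come from human probes on lemur RNA, so that a signal is set only against the same probe set in another animal. Each array was scaled to a trimmed mean of 100. The mean signal of the arrays was 156 to 248. The poly-A control RNA was lacking on the 4 arrays of AD-like F2, old M1, old M2 and young adult M2, with a signal of 168 or less where the other 14 had 1402 or more. These 4 and young adult M1 were the 5 arrays of lowest mean signal, and 4 of these 5 are from males. Neuronal markers had a summed signal of 24820 to 55770 in AD-like, 36430 to 63180 in old and 17180 to 63700 in young adult animals, with 8 of 9 passing the filter given next. The microglial markers summed to 260 to 268 in AD-like, 158 to 349 in old and 144 to 402 in young adult animals, and 0 of 5 passed it. No kept marker of neurons, astrocytes, oligodendrocytes or endothelium passed an unadjusted p of 0.05 between AD-like and old or between old and young adult animals. In a piece of cortex, fewer cells of a type and less RNA per cell cannot be told apart.

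The filter ranked probe sets by their third-highest signal and kept the top 27.3%, those at 147.5 or more, and 13 of the 24 passed it, with at least 1 for each of the 9 genes. UBQLN1 passed with 3 of 3, UBE2K with 2 of 3, UBE3A with 2 of 8, and UBQLN2, UBQLN4, UCHL1 and UBA1 with 1 of 2 each. UBB and RNF185 had 1 probe set each, which passed. The 11 that did not pass had mean signals of 31 to 101, with single signals up to 232, and are not described further. Where a gene has several kept probe sets they are lettered A, B and C, and the plots give their identifiers. The differences below are of log2(signal + 16), fitted with limma over all kept probe sets.

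UBQLN1, the ubiquilin best known for binding presenilins, was higher in both AD-like animals than in any other animal on 1 of its 3 probe sets. Probe set A gave 756 in AD-like F1 and 612 in AD-like F2, against 108, 379 and 455 (lowest, median and highest) in old animals and 342, 433 and 498 in young adults. Both AD-like animals lay above all 10 old and all 6 young adult animals, as they did on 0.49% of all kept probe sets. The old and young adult animals overlapped. The mean was 684 ± 102 in AD-like (SD, n = 2), 336 ± 124 in old (SD, n = 10) and 426 ± 50.4 in young adult animals (SD, n = 6). The difference was 1.11 (SE 0.44) for AD-like minus old, 0.67 (SE 0.46) for AD-like minus young adult and -0.45 (SE 0.29) for old minus young adult animals. The old animals F4 and F7 stood apart at 108 and 120, while the lowest of the other 8 was 327. Without these 2 animals, a choice made after their values were seen, the difference was 0.78 for AD-like minus old and -0.12 for old minus young adult animals.

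The other 2 UBQLN1 probe sets were also highest on average in the AD-like animals, but with overlap. Probe set B gave 870 in AD-like F1 and 1047 in AD-like F2, against 315, 579 and 1027 in old and 258, 660 and 818 in young adult animals. Old M1, at 1027, lay between the AD-like animals, and the other 9 old animals and all young adults lay below both. The difference was 0.69 (SE 0.44) for AD-like minus old, 0.87 (SE 0.46) for AD-like minus young adult and 0.17 (SE 0.29) for old minus young adult animals.

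Probe set C of UBQLN1 gave 948 in AD-like F1 and 983 in AD-like F2, against 493, 748 and 1704 in old and 572, 616 and 893 in young adult animals. Old M1 and M2, at 1541 and 1704, lay well above every other animal, and the other 8 old animals lay below both AD-like animals. The difference was 0.24 (SE 0.39) for AD-like minus old, 0.54 (SE 0.41) for AD-like minus young adult and 0.30 (SE 0.26) for old minus young adult animals. Its signal was 893 to 1704 on the 4 arrays lacking poly-A control RNA, against 493 to 948 on the other 14, so the array sets touched only at their ends. With the array sets as a block the difference for AD-like minus old was -0.01, and on the 14 arrays, where AD-like F1 is alone in its group, it was 0.46. The cause of this dependence was not tested. Over the 18 animals the 3 UBQLN1 probe sets followed each other little, with Pearson correlations of log2 signals of 0.13, 0.24 and 0.25, as a description over animals that share group and array set.

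UBQLN2, the X-linked ubiquilin in which mutations cause a motor neuron disease in humans, did not separate the groups. It gave 658 in AD-like F1 and 494 in AD-like F2, against 39.3, 465 and 866 in old and 89.4, 338 and 537 in young adult animals. The difference was 0.47 for AD-like minus old (95% interval -1.03 to 1.96, adjusted p = 0.974), 0.88 for AD-like minus young adult (-0.70 to 2.45, adjusted p = 1) and 0.41 for old minus young adult animals (-0.59 to 1.41, adjusted p = 0.917). Old F2 was lowest, at 39.3, and the next old animal gave 293.5. Without old F2 the difference for old minus young adult animals was 0.74 (limma unadjusted p = 0.0429, adjusted p = 0.854).

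UBQLN4, a ubiquilin that also acts in the DNA damage response, also had overlapping groups. It gave 197 in AD-like F1 and 289 in AD-like F2, both below the old median, against 148, 341 and 916 in old and 54.8, 284 and 356 in young adult animals. Old F1 and F3, at 916 and 696, lay far above all others, and the next old animal, M1, gave 408. The difference was -0.51 for AD-like minus old (95% interval -1.67 to 0.66, adjusted p = 0.971), 0.09 for AD-like minus young adult (-1.14 to 1.32, adjusted p = 1) and 0.59 for old minus young adult animals (-0.18 to 1.37, adjusted p = 0.858). On neither paralog did both AD-like animals lie above all others, as they did on UBQLN1 A. UBQLN2 was still highest on average in the AD-like animals, as UBQLN1 B and C were. Its differences of 0.47 from old and 0.88 from young adult animals stood beside 0.69 and 0.87 on UBQLN1 B. On UBQLN1 C they were 0.24 and 0.54. Whether the paralogs differ from UBQLN1 was not tested.

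**Figure D1:**
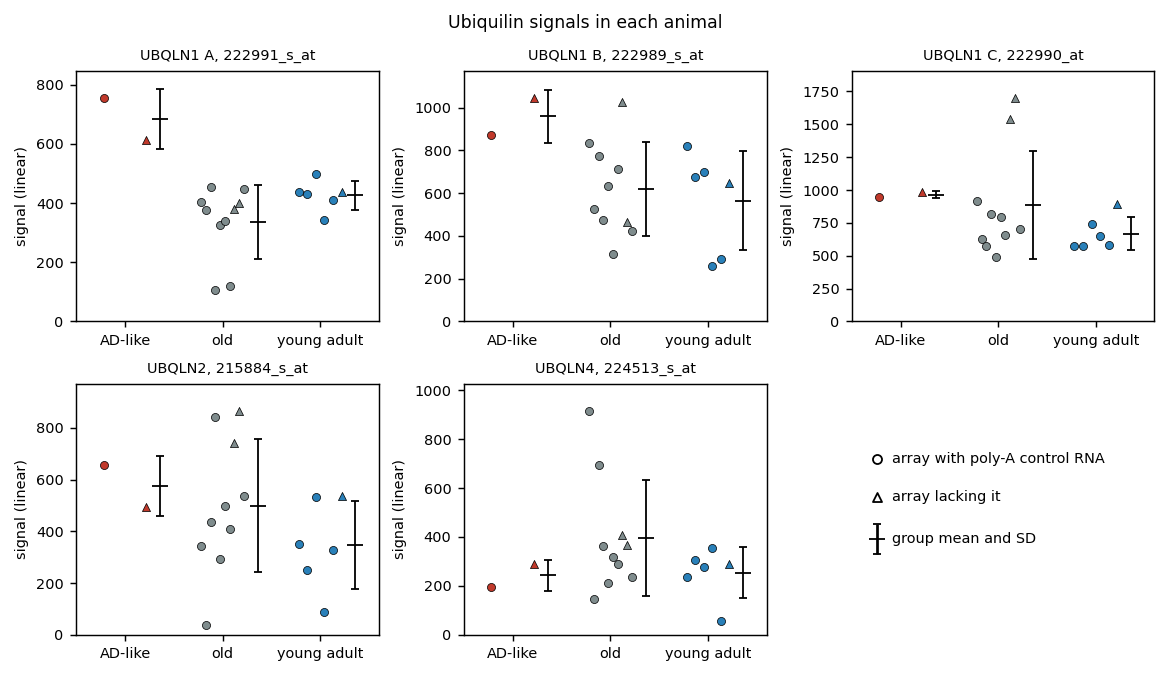
Linear signal of the 5 ubiquilin probe sets that passed the filter, 1 point for each animal, with AD-like, old and young adult animals from left to right and the group mean with its SD beside the points. On UBQLN1 A the AD-like animals, at 612 and 756, lie above the other 16, as on 0.49% of all kept probe sets. On UBQLN2 and UBQLN4 they lie within the range of the old animals.

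The other 7 genes besides UBQLN1 and RNF185 had 9 kept probe sets, and none of them passed the test in any comparison, either at an unadjusted p under 0.05 or after adjustment in limma, where 1.16% to 3.61% of all kept probe sets passed the unadjusted rule in 1 direction of a comparison. Their adjusted p was 0.971 to 1 for AD-like minus old, 1 for AD-like minus young adult and 0.858 to 0.93 for old minus young adult animals. Of the 9, 3 had a positive difference for AD-like minus old, 6 for AD-like minus young adult and 8 for old minus young adult animals, beside 48.3%, 51.4% and 53.7% of all kept probe sets.

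UBB, a stress-responsive gene that encodes a chain of ubiquitin units, had the smallest relative spread of the 13 probe sets. It gave 2388 in AD-like F1 and 2317 in AD-like F2, against 1555, 2122 and 2902 in old and 1636, 1829 and 2116 in young adult animals. Both AD-like animals lay above all 6 young adults and inside the range of the old animals. The coefficient of variation was 19.2% over the 18 animals, below the median of 41.6% over all kept probe sets, of which 1.45% had a lower one. The difference was 0.13 for AD-like minus old (95% interval -0.46 to 0.73, adjusted p = 0.982), 0.35 for AD-like minus young adult (-0.28 to 0.98, adjusted p = 1) and 0.21 for old minus young adult animals (-0.19 to 0.61, adjusted p = 0.898). Under quantile normalization, with a changed scale for every array, these were 0.41 for AD-like minus old and -0.05 for old minus young adult animals. On linear signals, the test named in the methods called UBB higher in AD-like than in young adult animals by the unadjusted rule but not after adjustment (adjusted p = 1).

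UCHL1, one of the most abundant proteins of neurons, had overlapping groups. It gave 271 in AD-like F1 and 141 in AD-like F2, against 16.8, 131 and 196 in old and 90.4, 127 and 346 in young adult animals. AD-like F1 lay above all old animals and AD-like F2 inside their range. The difference was 0.91 for AD-like minus old (95% interval -0.33 to 2.14, adjusted p = 0.971), 0.33 for AD-like minus young adult (-0.97 to 1.63, adjusted p = 1) and -0.58 for old minus young adult animals (-1.40 to 0.24, adjusted p = 0.866).

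UBA1, the main ubiquitin E1 enzyme, differed widely between animals of the same group. It gave 4236 in AD-like F1 but 1413 in AD-like F2, the lowest of the 18, against 1856, 4712 and 6168 in old and 1586, 3950 and 6325 in young adult animals. The difference was -0.80 for AD-like minus old (95% interval -1.89 to 0.29, adjusted p = 0.971), -0.47 for AD-like minus young adult (-1.62 to 0.69, adjusted p = 1) and 0.33 for old minus young adult animals (-0.39 to 1.06, adjusted p = 0.909). Left to AD-like F1 alone, the difference from old animals was -0.01, and left to AD-like F2 alone it was -1.59 (unadjusted p = 0.0301, adjusted p = 0.584), so that 1 animal carried it. Both AD-like animals lay below all 7 old females, which gave 4501 to 6168. Among females only, the difference from old animals was -1.10, a call by the unadjusted rule (p = 0.00793, adjusted p = 0.298), with 7.99% of all kept probe sets called lower in the same fit. With sex as a covariate it was -1.16 and also called (unadjusted p = 0.00517, adjusted p = 0.301). On the 14 arrays with poly-A control RNA it was -0.27 (adjusted p = 1). The 5 arrays of lowest mean signal gave 1413 to 2311 for UBA1, against 3948 to 6325 on the other 13, with no overlap. The correlation of UBA1 with the mean signal of the array was 0.92 over 18 arrays, where the median over all kept probe sets was 0.04 and the 90th percentile was 0.70.

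UBE2K, an E2 enzyme that builds lysine-48 chains and interacts with huntingtin, followed the pattern of UBA1. Its probe set A gave 2722 in AD-like F1 and 1283 in AD-like F2, against 693, 2053 and 3110 in old and 703, 1903 and 2634 in young adult animals. The difference was 0.00 for AD-like minus old (95% interval -1.10 to 1.10, adjusted p = 1), 0.26 for AD-like minus young adult (-0.90 to 1.43, adjusted p = 1) and 0.26 for old minus young adult animals (-0.47 to 1.00, adjusted p = 0.93). It was 693 to 1283 on the 5 arrays of lowest mean signal, against 1560 to 3110 on the other 13. Probe set B ranged from 685 in AD-like F2 to 2546 in a young adult. Its difference was -0.60 (SE 0.46) for AD-like minus old and -0.21 (SE 0.48) for AD-like minus young adult. For old minus young adult animals it was 0.38 (SE 0.30). UBA1 had a Pearson correlation of log2 signals of 0.89 and 0.86 with the UBE2K probe sets over 18 animals, which share their arrays, and of 0.69 and 0.68 after quantile normalization. The correlation of the UBE2K probe sets with the mean signal of the array was 0.83 and 0.78.

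UBE3A, the E3 ligase that is lost from neurons in Angelman syndrome, had wide and overlapping ranges. Probe set A gave 3096 in AD-like F1 and 2524 in AD-like F2, against 1977, 3212 and 3898 in old and 1477, 1957 and 3768 in young adult animals. All 10 old animals lay above the young adult median, yet 9 of the 10 lay inside the young adult range. The difference was -0.03 for AD-like minus old (95% interval -0.79 to 0.72, adjusted p = 0.996), 0.33 for AD-like minus young adult (-0.46 to 1.13, adjusted p = 1) and 0.36 for old minus young adult animals (-0.14 to 0.87, adjusted p = 0.866). Probe set B gave 112 to 469 over the 18 animals, and its correlation with probe set A was 0.30.

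RNF185, an E3 ligase of the endoplasmic reticulum and mitochondria, was lowest in the AD-like animals. It gave 45.6 in AD-like F1 and 67.3 in AD-like F2, against 87.5, 413 and 632 in old and 180, 380 and 561 in young adult animals. Both AD-like animals lay below all 16 others, as they did on 0.637% of all kept probe sets. Their values were close to the median signals of their own arrays, 44.4 and 53.0. The mean was 56.5 ± 15.3 in AD-like (SD, n = 2), 409 ± 172 in old (SD, n = 10) and 375 ± 158 in young adult animals (SD, n = 6). The difference was -2.41 (SE 0.53) for AD-like minus old, -2.34 (SE 0.56) for AD-like minus young adult and 0.08 (SE 0.35) for old minus young adult animals. With AD-like signals this low the size depends on the offset, and the difference for AD-like minus old was -2.69 with an offset of 1 and -1.99 with one of 50, so it is not a measured fold. The lowest old animal was M2, at 87.5, whose array is among the 4 lacking poly-A control RNA. The difference for AD-like minus old was -2.62 without old M2, and it was -2.63 for AD-like F1 alone and -2.20 for AD-like F2 alone. On the 14 arrays with the control RNA, where AD-like F1 is alone in its group, it was -2.84.

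**Figure D2:**
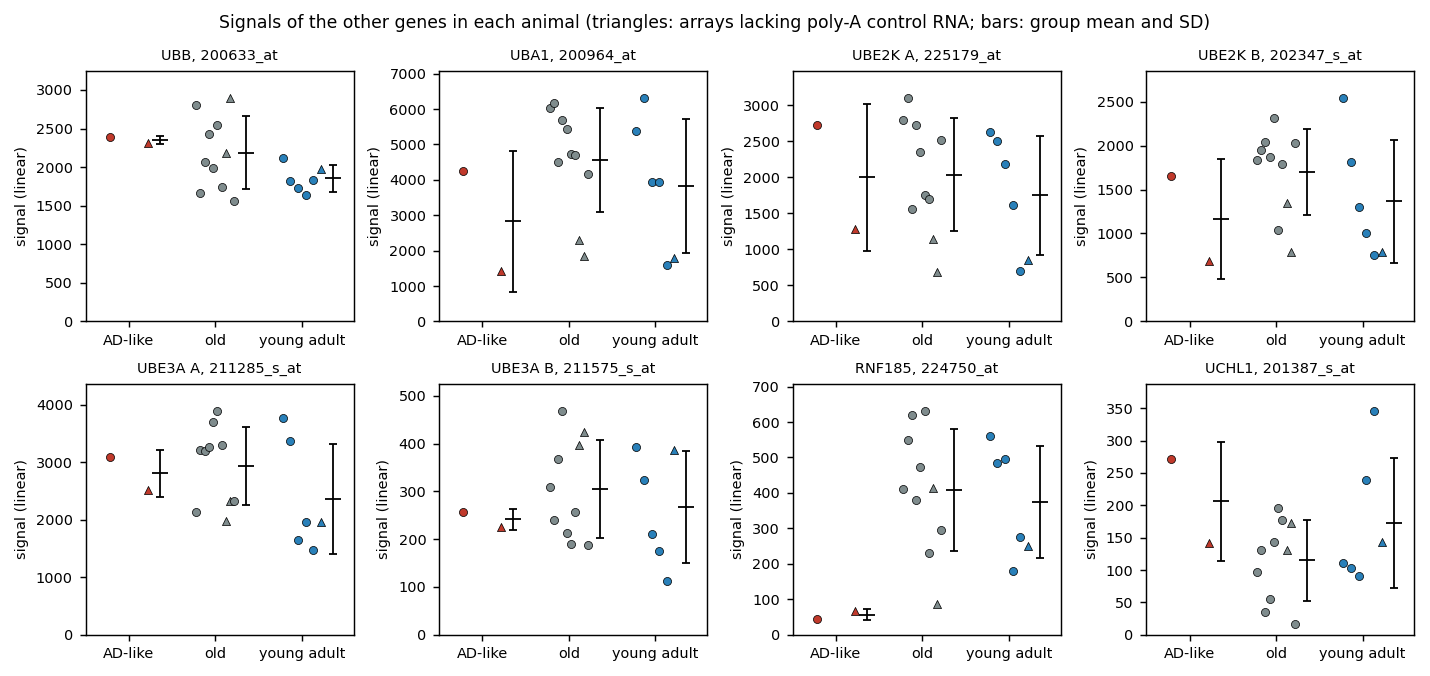
Linear signal of the 8 kept probe sets of UBB, UBA1, UBE2K, UBE3A, RNF185 and UCHL1, 1 point for each animal, with AD-like, old and young adult animals from left to right. RNF185 is at 45.6 and 67.3 in the AD-like animals, below the other 16, as on 0.637% of all kept probe sets. The triangles (arrays lacking poly-A control RNA) lie low for UBA1 and UBE2K and not for UBB.

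Of the 13 kept probe sets, 6 had a higher and 7 a lower fitted mean in the AD-like group than in the old group. With an unadjusted p under 0.05 in limma, 1 was higher (UBQLN1 A) beside 1.26% of all kept probe sets, and 1 was lower (RNF185) beside 3.61%. Both AD-like animals lay above all 10 old animals on 1 of the 13, beside 1.43% of all, and below them on 1, beside 1.62%. After adjustment 0 of the 13 passed, beside 0.00671% of all kept probe sets. UBQLN1 and RNF185 are the genes treated as selected on these values, so nothing is read from these counts.

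Against young adults, 9 of the 13 had a higher and 4 a lower fitted mean in the AD-like group. None was higher at an unadjusted p under 0.05, beside 1.16% of all kept probe sets, and 1 was lower (RNF185), beside 3.18%. After adjustment 0 of the 13 passed, as did 0% of all. On linear signals, the test named in the methods called 3 of the 13 higher (UBB and UBQLN1 A and C) beside 2.21% of all kept probe sets, and 1 lower (RNF185) beside 1.39%, and 0 passed after adjustment. The comparisons of AD-like animals with old and with young adult animals share the AD-like animals.

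Between old and young adult animals, 11 of the 13 had a higher and 2 a lower fitted mean in old animals, with a median difference of 0.26 beside 0.03 over all kept probe sets. None passed an unadjusted p of 0.05 in limma, whereas 3.49% of all kept probe sets were higher and 2.43% lower by that rule, and 0% passed after adjustment. On linear signals, the test named in the methods also called 0 of the 13, beside 3.25% of all kept probe sets higher and 2.82% lower. The median difference of the 13 was 0.00 for AD-like minus old, beside -0.02 over all, and 0.33 for AD-like minus young adult animals, beside 0.02.

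**Figure D3:**
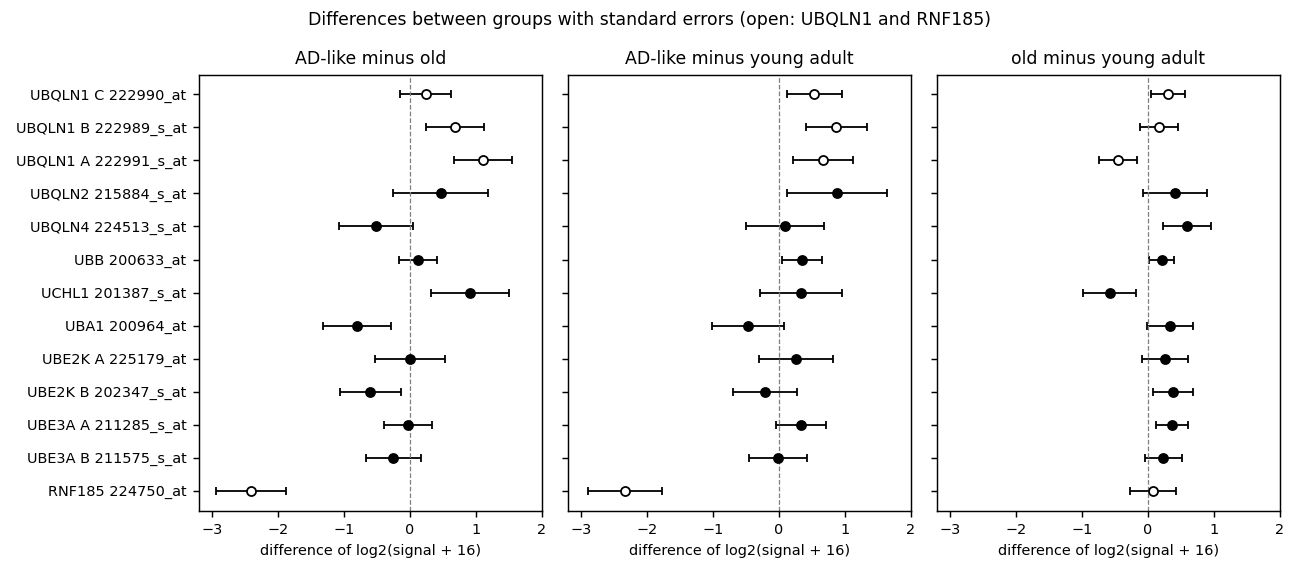
Differences of log2(signal + 16) with standard errors for the 13 kept probe sets in the 3 comparisons, with open symbols for UBQLN1 and RNF185. RNF185 stands at -2.41 and -2.34 in the comparisons of AD-like animals, and in the comparison of old with young adult animals no probe set lies beyond 0.59 in size.

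The labels also give sex. UBA1 and UBE2K were the genes in which males and females lay furthest apart on the signals as deposited, but not after quantile normalization. UBA1 was 1856 to 4153 in the 3 old males against 4501 to 6168 in the 7 old females, and 1586 to 1797 in the 2 young adult males against 3948 to 6325 in the 4 young adult females. Males lay below females of their own group without overlap. UBE2K A was 693 to 2514 in old males against 1560 to 3110 in old females, and 703 to 858 in young adult males against 1617 to 2634 in young adult females. With the groups in the model, males minus females gave -1.20 for UBA1 (limma, adjusted p = 0.0137) and -1.07 for UBE2K A (adjusted p = 0.0271). In the same fit 1524 of all kept probe sets passed after adjustment, among them these 2, so passing does not set UBA1 and UBE2K apart. This comparison was added after UBA1 had been seen to be low in males.

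In that comparison 1 of the 13 probe sets was higher in males at an unadjusted p under 0.05, beside 11.3% of all kept probe sets, and 5 were lower, beside 17.7%. The probe set higher in males was UBQLN1 C, and the lower ones were those of UBA1 and RNF185, both of UBE2K, and UBE3A A. Of the 5 males, 4 are on the 5 arrays of lowest mean signal, so sex and array can hardly be told apart. Old M3 and young adult M1 are the only males among the 14 arrays with poly-A control RNA. For UBA1 the difference was -0.94 on the 14 arrays with poly-A control RNA (adjusted p = 0.191), -0.55 after quantile normalization (adjusted p = 0.124) and -0.26 with the mean signal of the array in the model (adjusted p = 0.99). For UBE2K A it was -0.68 on those 14 arrays (adjusted p = 0.384), -0.63 after quantile normalization (adjusted p = 0.148) and -0.04 with the mean signal of the array (adjusted p = 0.999). After quantile normalization the widest gaps were those of UBQLN2, at 1.13 (adjusted p = 0.16), and UBQLN1 C, at 1.02 (adjusted p = 0.0374). There 460 of all kept probe sets passed after adjustment, with UBQLN1 C the only 1 of the 13. Yet UBQLN1 C was -0.03 on the 14 arrays (adjusted p = 0.957).

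The change with age did not differ between males and females in any of the 13 probe sets at an unadjusted p under 0.05 in limma, beside 4.6% of all kept probe sets, and the adjusted p was 0.998 for each. UCHL1 had the widest gap, with old minus young adult at -1.31 in males and -0.23 in females, a gap of -1.08 (SE 0.85). The old males there include M3, with its low UCHL1 signal of 16.8. UBQLN4 was next, at 1.23 in males and 0.27 in females, a gap of 0.96 (SE 0.77).

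**Figure D4:**
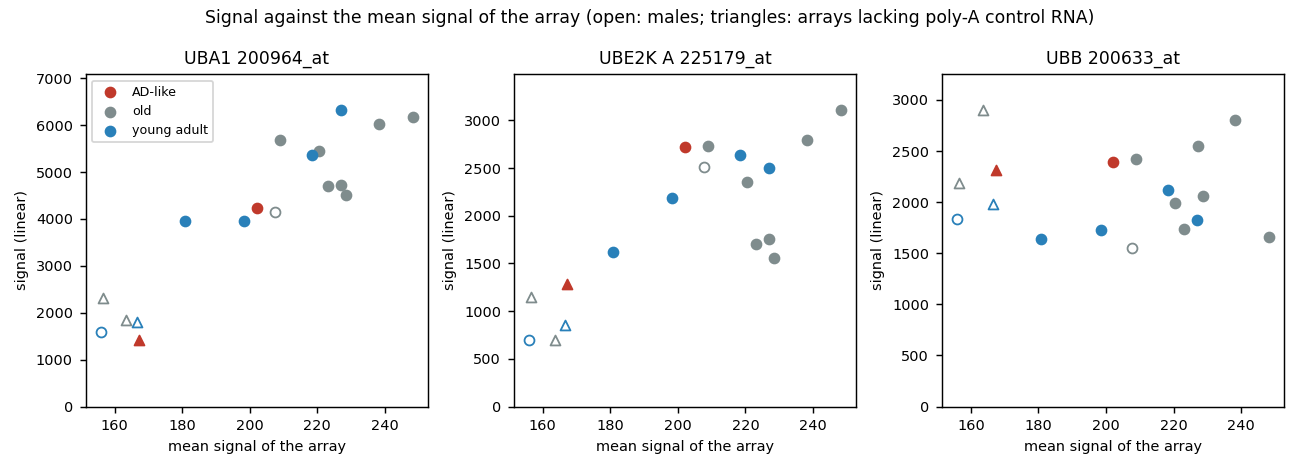
Linear signal of UBA1, UBE2K and UBB against the mean signal of the array, 1 point for each animal, with males open and arrays lacking poly-A control RNA as triangles. UBA1 is at 1413 to 2311 on the 5 arrays with a mean signal of 156 to 167 and at 3948 to 6325 on the other 13, and UBB shows no such step.

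The genes whose pattern was most like that of UBQLN1 A among 12717 kept probe sets with 1 symbol were MCM3AP, RUFY3, CTSS, PIGO and PLEKHA8, with Pearson correlations of log2 signals of 0.83, 0.80, 0.79, 0.76 and 0.76 over 18 animals. Without old F4 and F7 the correlations were 0.28, 0.39, -0.08, 0.33 and 0.46. The likeness thus rested on those 2 animals.

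The wider ubiquitin system was described with 182 further genes in 5 lists, of which 155 were named by a probe set of 1 symbol and 128 had a kept probe set. Between AD-like and old animals, 0 of the 128 were called higher and 2 were called lower by the unadjusted rule, beside 1.18% and 3.80% of 8819 genes. The 2 were DERL2, a channel component of protein export from the endoplasmic reticulum, and UBE2F, an E2 enzyme for the ubiquitin-like protein NEDD8. DERL2 was 9.65 and 41.6 in the AD-like animals, against 21.0, 141 and 297 in old animals, a difference of -1.68 (SE 0.69, limma adjusted p = 0.964). Both AD-like signals lay below the median signals of those arrays, 44.4 and 53.0, so this difference is not a measured fold. UBE2F was 65.5 and 254 in AD-like animals, against 132, 281 and 449 in old animals, a difference of -0.95 (SE 0.39, adjusted p = 0.964). In both genes the groups overlapped.

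Between old and young adult animals, 7 of the 128 were called higher and 2 were called lower by the unadjusted rule, beside 3.59% and 2.29% of 8819 genes, and 0 passed after adjustment. The receptors, shuttles and partners of the segregase VCP, the list closest to the ubiquilins, held 3 of the 7, and 19 of its 22 kept genes had a positive difference, beside 55.6% of all 8819 genes, with a median of 0.17 beside 0.05. For AD-like minus old animals, 7 of these 22 had a positive difference, beside 45.8% of all genes, with a median of -0.30 beside -0.05. In that comparison 7 of 21 E2 enzymes, 1 of 3 E1 genes, 22 of 41 E3 ligases and 24 of 41 deubiquitinases were positive. The 3 E1 genes were NAE1, SAE1 and UBA6, and no ubiquitin gene of that list was kept. For old minus young adult animals the E2, E1, E3 and deubiquitinase lists had 13, 2, 24 and 26 positive. The 3 VCP partners called higher in old animals were the cofactors NSFL1C, UBXN4 and FAF1. NSFL1C was 1690, 1920 and 2760 in old animals against 967, 1350 and 1800 in young adults, a difference of 0.57 (SE 0.19, limma adjusted p = 0.837). UBXN4 gave a difference of 0.89 (SE 0.31) and FAF1 one of 0.55 (SE 0.25), both with an adjusted p of 0.837.

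The other 4 that were higher in old animals were RBX1 (0.68, SE 0.22), the RING subunit of cullin ligases, NAE1 (0.53, SE 0.21), a subunit of the NEDD8 E1 enzyme, COPS5 (0.67, SE 0.30), the subunit that takes NEDD8 off cullins, and PJA1 (0.49, SE 0.21), an E3 ligase. The 2 that were lower were the E3 ligase TRIM9 (-0.85, SE 0.34) and the deubiquitinase OTUD5 (-0.67, SE 0.29). RBX1 was 1710, 2250 and 3850 in old animals against 858, 1640 and 1890 in young adults, and the groups overlapped at their ends. NSFL1C, RBX1 and PJA1 are also in lists that the study drew from these same arrays, so their direction here is not independent evidence.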

How the data were processed

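The authors deposited intensity values that GCOS 1.2 had made, linear signals with a trimmed mean of 100 on each of the 18 arrays (2% of probe sets trimmed at each end). Detection calls were not used here. From 54675 probe sets 62 controls were removed, and the filter kept those with a third-highest signal of at least 147.5, which is 27.3%. Values were transformed to log2(signal + 16), and the 3 groups were compared in 1 model with limma 3.58.1 (R 4.3.3). Benjamini-Hochberg adjustment covered all kept probe sets, and a probe set was called at an unadjusted p under 0.05. The model takes the 2 AD-like animals to vary like the rest, and the number of arrays limits the precision. The most similar arrays had a Spearman correlation of 0.888 over the kept probe sets. The fits were tested on simulated data.

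The members and lists were chosen with earlier results of these data known. The text names each kept UBQLN1 probe set, the brightest kept probe set of each other gene with any other called one, the 5 genes most correlated with UBQLN1 A, and up to 3 genes of each list with the smallest p for old minus young adult and AD-like minus old animals. UBE3A B is given as a range only. Alternatives were the offset, normalization, filter, variance model, array weights, the methods' test on linear signals, sex as a covariate, females only, poly-A control RNA, GAPDH and beta-actin 3' to 5' ratios, animal labels as a block, and each animal left out. Of 10 pairs of animals with the same label in different groups, 6 had deviations correlated over 0.1 (range -0.27 to 0.47). Pairs with unlike labels were not set beside them, so this does not tell whether labels pair animals. Genes were matched by symbol, and all 9 are annotated in the lemur genome by RefSeq. No sequence was used here.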

Additional observations from a re-analysis of the deposited data

How the results depend on the processing

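In the 3 comparisons of groups no called difference reversed, but in males minus females 3 did. UBQLN1 C was -0.03 on the arrays with poly-A control RNA (0.58 on all), UBE3A A was 0.09 after quantile normalization (-0.55 before), and UBE2K B was 0.23 with the mean signal of the array as a covariate (-0.68 without). For AD-like minus old animals 2 of the 13 probe sets were called, against 4 with the label as a replicate block, 3 with sex as a covariate, 3 in females only, 1 on the arrays with poly-A control RNA and 1 without the 5 arrays of lowest mean signal, a setting chosen after seeing the data. UBA1 was the call added with sex as a covariate, in females only and, with UBE2K B, under the block, at -1.16, -1.10 and -1.40. UBQLN1 A was the one no longer called, at 1.34 with a wider error, since the AD-like group then held 1 animal, and it was 0.96 and not called without AD-like F1. After adjustment 0 passed, against 1 (RNF185) with sex as a covariate, 1 in females only and 1 without old M2. RNF185 and UBQLN1 are treated as selected on these values, so nothing is read from RNF185 passing or from calls of either gene. The difference for RNF185 was -2.87 to -1.99 over 17 other settings and -2.63 to -2.20 with each animal left out. Of all kept probe sets, the fit of females only called 4% higher and 7.99% lower, beside 1.26% and 3.61% in the main fit. For most other settings in this section that share is not given beside the counts. Nothing about these genes is therefore read from a count that moved.

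For AD-like minus young adult animals 1 was called, against 4 with the test on linear signals and 2 each with quantile normalization, sex as a covariate, females only, the replicate block and the GAPDH ratio, and 1 to 2 when each animal was left out (2 without young adult F1). UBA1 was among the calls with sex as a covariate, in females only and under the block, at -0.87, -0.97 and -1.16. For old minus young adult animals 0 were called, against 1 (UBE2K B) with the beta-actin ratio and 0 to 1 when each animal was left out. The calls were UBQLN2 without old F2 and UBE3A A without young adult F1. For the sex difference of the age effect 0 were called, against 1 without old M3. No count is given for fits that leave 1 male in an age group. These are the arrays with poly-A control RNA, with old M3 and young adult M1 alone, and the fits without young adult M1 or M2. For males minus females 6 were called, beside 4313 of all kept probe sets. On the arrays with poly-A control RNA 3 were called, beside 2456 of all. With the mean signal of the array as a covariate 0 were, beside 892 of all. When each animal was left out 3 to 7 were called (3 without old M2).

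Nothing in the labels says that the animals are paired, so the replicate block groups animals known only to share a label. In the comparisons of groups the sign changed in 22 of 455 fits for AD-like minus old, 29 of 455 for AD-like minus young adult and 7 of 455 for old minus young adult animals. The 455 cover all 13 probe sets, and all the changes were in uncalled differences. For AD-like minus old, UBE2K A, at 0.00 in the main fit, gave 12 of the 22, and UBE3A A, at -0.03, gave 8. Smaller differences than the intervals allow could not be seen with 2 AD-like animals. Where no cause is stated, the cause was not tested.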
